A study of Mus musculus with 16 samples.

Results

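Inmt encodes indolethylamine N-methyltransferase, and its RNA was followed in retroperitoneal fat of gonadectomised mice during the first day after an injection of dihydrotestosterone (DHT). The gene was represented by every probe set whose only gene symbol in the array annotation was Inmt. This was 1 probe set (97402_at, Entrez gene 21743) of the 12488 on the array, and 1 of 8251 genes. Inmt was chosen because its signal was higher than vehicle at late times after DHT, so its values against vehicle and late against early are given below as a description, with no test. Its level in females against males played no part in that choice and was tested.

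The enzyme transfers a methyl group from S-adenosylmethionine to the nitrogen of tryptamine and related amines, and it can also methylate sulfur and selenium compounds. S-adenosylmethionine is made from methionine, and the S-adenosylhomocysteine left after the transfer is hydrolysed to return homocysteine to the same cycle. Inmt is best known as an abundant transcript of lung, and its relatives Nnmt and Pnmt methylate nicotinamide and noradrenaline. DHT acts through the androgen receptor, a transcription factor, and gonadectomy removes the main source of the animal's own sex steroids.

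All 16 samples came from gonadectomised mice, males on 8 arrays and females on the other 8. For either sex, 2 arrays were from mice given vehicle, and 6 were from mice given 0.1 mg DHT subcutaneously at 1, 3, 6, 12, 18 or 24 h before necropsy, with 1 array per time. Times of 1, 3 and 6 h are called early here, and 12, 18 and 24 h late. The labels attach 24 h to the vehicle samples as well, and give no strain or age. Fat from the mice of a group was gathered together, so an array may hold RNA of a pool of mice. Whether paired vehicle arrays hold RNA of different animals is not stated, so the spread between the female vehicle arrays may be only technical. The male vehicle arrays also differed in tissue content, as given below. In the limma fits of sex and time, p-values measure the spread between paired vehicle arrays. They also measure how far the sex difference varied between times, vehicle included. Values are linear MAS5 signals, scaled so that the trimmed mean of every array lay between 499.5 and 499.6, and the number of arrays limits the precision.

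The fat label was checked against marker genes. Adipoq, the gene of the fat hormone adiponectin, had signals of 19206 to 31645 on 15 arrays and 1946 on the second male vehicle array. On that array the summed signal of 19 skeletal muscle markers was 401343, which was 7.11 times the median of the other male arrays. It is called the muscle-rich array. The same array held 1578 units of the airway gene Scgb1a1, against 47 to 131 on the other arrays, and 440 units of the surfactant gene Sftpc, against 80 to 208. The other measured lung markers, Sftpb (47.7), Ager (88.8) and Sftpd (55.0), were within the range of the other arrays. Inmt read 501 there, below the 891 of the other male vehicle array. In whole tissue, fewer cells of a type and less RNA per cell cannot be told apart.

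The 250 bases upstream of the RefSeq start of Inmt lie at chr6:55174991-55175240 on the minus strand of GRCm38.p6. They are shown because the gene was chosen for its signals after a steroid that acts through a DNA-binding receptor, and capitals mark the letters TATAAA, the core of a TATA box.
Inmt promoter: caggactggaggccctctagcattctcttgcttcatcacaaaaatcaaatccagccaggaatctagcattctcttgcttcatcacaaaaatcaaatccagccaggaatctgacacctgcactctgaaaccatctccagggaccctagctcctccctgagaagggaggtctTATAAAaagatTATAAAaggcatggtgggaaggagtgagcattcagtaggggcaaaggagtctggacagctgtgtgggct

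TATAAA occurred at 80 to 75 and again at 69 to 64 bases before the start. On either strand, 12.4% of 32851 promoter windows of that length held this motif. Further upstream the Inmt window held a stretch of 46 bases in 2 identical copies, back to back, 235 to 144 bases before the start. A direct copy of 40 or more bases was present in 0.158% of the windows.
Repeated unit: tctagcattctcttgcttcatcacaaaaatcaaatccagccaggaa

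The androgen and glucocorticoid receptors bind the same DNA hexamer, TGTTCT, and its full palindrome, in which AGAACA and TGTTCT are separated by any 3 bases and which contains the hexamer. Neither was found on either strand of the Inmt window. The hexamer was present in 16.1% of the 32851 windows and the full element in 0.00913%. The windows of Fkbp5, Mt2 and Gadd45g, steroid-induced genes that are compared with Inmt below, held neither motif. A missing match says only that these letters are absent from 250 bases.

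In males, Inmt signals were 891 and 501 on the vehicle arrays, the latter being the muscle-rich array. After DHT they were 476 at 1 h, 800 at 3 h, 1163 at 6 h, 1716 at 12 h, 1655 at 18 h and 1214 at 24 h. The 1 h array was the lowest of all male arrays, and the 3 h array lay between the vehicle arrays. From 6 h onward each male array was above both vehicle arrays, and the level at 24 h was 70.8% of the 12 h maximum.

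In females, Inmt signals were 146 and 129 on the vehicle arrays. After DHT they were 166 at 1 h, 316 at 3 h, 438 at 6 h, 577 at 12 h, 682 at 18 h and 650 at 24 h. All 6 DHT arrays were above both vehicle arrays, and at 24 h the level was still 95.3% of the 18 h maximum. The female vehicle signals were close to the filter on low signals, a signal of 116, where background makes up more of a value. A fold against them therefore depends more on background. The female vehicle arrays nonetheless lay closer together (138 ± 12.3, SD, n = 2) than the male vehicle arrays (696 ± 275, SD, n = 2).

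**Figure D1:**
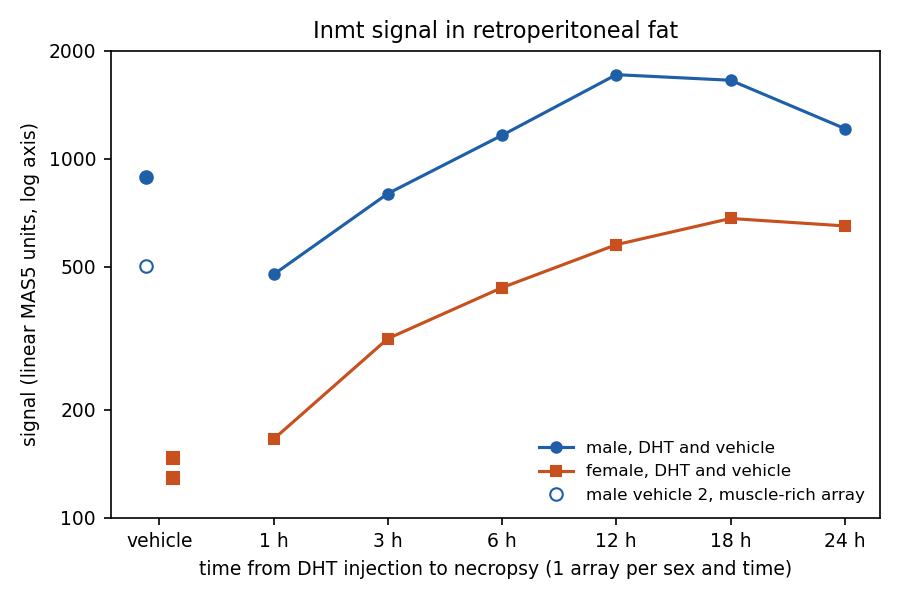
Inmt signal (linear MAS5 units, log axis) on each of the 16 arrays by time after DHT, 1 array per sex and time, with the vehicle arrays at the left and the muscle-rich array as an open circle. Male signals ran from 476 at 1 h to 1716 at 12 h and female signals from 166 at 1 h to 682 at 18 h, and the male array was higher at every time.

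Grouped by phase, male Inmt averaged 696 ± 275 with vehicle (SD, n = 2), 813 ± 344 early and 1528 ± 274 late (SD, n = 3 each). Female Inmt averaged 138 ± 12.3 with vehicle (SD, n = 2), 306 ± 136 early and 636 ± 54.1 late (SD, n = 3 each). In each sex all 3 late arrays were above all 3 early arrays. Of the 5686 genes tested, 0% passed a late against early test in limma at an adjusted p under 0.05 (146 genes at an unadjusted p under 0.05).

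With both sexes fitted together in limma, the Inmt difference from vehicle on the log2(signal + 16) scale was -0.12 at 1 h, 0.68 at 3 h, 1.17 at 6 h, 1.64 at 12 h, 1.74 at 18 h and 1.48 at 24 h (SE 0.30 each, 2 arrays against 4). These are 1.60-fold at 3 h, 2.26-fold at 6 h, 3.12-fold at 12 h, 3.33-fold at 18 h and 2.79-fold at 24 h. All 6 times share the vehicle arrays, so a high or low vehicle value moves all of them together. Without the muscle-rich array the differences were -0.15, 0.65, 1.14, 1.61, 1.71 and 1.45 at the 6 times in order (SE 0.30 each). Without the other male vehicle array the 1 h value was 0.15 ± 0.22, so the direction at 1 h depended on that array.

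The mean over the 6 times was 1.10 ± 0.20 above vehicle (12 arrays against 4), a 2.14-fold difference. In the same comparison 0.0703% of all genes tested passed in limma, and 0.0879% without the muscle-rich array. Those that passed were Errfi1, Fkbp5, Gadd45g and Mt2, joined by Cdkn1a without the muscle-rich array. Inmt was thus not among them. Late arrays were 1.04 ± 0.20 above early arrays (6 against 6), a 2.06-fold difference. Ordered by level, 18 h was highest, followed by 12, 24, 6 and 3 h, vehicle and 1 h. The differences between 18 and 12 h (0.09), 12 and 24 h (0.16), and 24 and 6 h (0.31) were all smaller than their SE of 0.34. The step from 3 to 6 h (0.49, SE 0.34) and that from vehicle to 3 h (0.68, SE 0.30) were larger than their SE. Vehicle and 1 h differed by 0.12, less than the SE of 0.30.

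A technical measure was low on 4 of the 6 early arrays. The 6 control probe sets that read the opposite strand of Actb and Gapdh had a mean log2 level of 6.38 to 6.75 on 4 arrays, the male 1 h array and the female 1, 3 and 6 h arrays. The other early arrays had 9.28 (male 3 h) and 8.62 (male 6 h). The level was 8.68 to 9.96 on the 6 late arrays and 7.64 to 9.14 on the 4 vehicle arrays. With this level as a covariate the late against early difference of Inmt was 1.04 ± 0.29. The summed adipocyte markers were 1.12 times as high on late as on early arrays, the fibroblast markers 1.10 times, the macrophage markers 1.14 times and the lung markers 1.19 times. The skeletal muscle markers were 0.841 times as high, with 17 of 18 tested markers lower late and none past the threshold in limma. Of all genes tested, 46.5% were higher late. The part of these differences in the Inmt difference was not tested.

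The Inmt time course was set beside those of Fkbp5, Mt2 and Gadd45g, genes known to be induced by steroid hormones. They came from a list of 17 tested genes, of which 13 were above vehicle under DHT and 4 below. Of all genes tested, 55.4% were above. Only Errfi1, Fkbp5, Gadd45g and Mt2 of the list passed on 16 arrays. The compared genes were thus among those that responded in these data, and their p-values below are no independent test. Fkbp5 encodes a co-chaperone of steroid receptors, Mt2 a metal-binding metallothionein and Gadd45g a stress and growth arrest protein. Inmt was highest at 12 h in males and 18 h in females. Fkbp5 was highest at 12 h in both sexes, and Mt2 and Gadd45g at 6 h in both. By 24 h Inmt was at 70.8% of its highest level in males and 95.3% in females. The corresponding shares were 58.3% and 41.6% for Fkbp5, 62.2% and 33.7% for Mt2, and 37.3% and 54.5% for Gadd45g. Inmt thus kept more of its maximum at 24 h than the other genes did in the same sex, on 1 array per time. This share ignores the vehicle level, Inmt was chosen for its late signals, and the difference was not tested. Against the male vehicle array that was not muscle-rich, male 24 h Inmt was 1.36-fold, below Fkbp5 (2.25), Mt2 (2.47) and Gadd45g (1.70). Against mean female vehicle, female 24 h Inmt was 4.72-fold, above Fkbp5 (2.49), Mt2 (2.19) and Gadd45g (1.92).

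At 1 h Inmt stood at 0.535 times the male vehicle array that was not muscle-rich and at 1.20 times the mean female vehicle level. Gadd45g was already 2.81 and 2.40 times as high at that time. Its log2 difference from vehicle reached 1.98 ± 0.22 at 6 h (adjusted p from limma = 0.00694) and was 0.85 ± 0.22 at 24 h, when it did not pass (0.930). Mt2 was 2.58 ± 0.30 above vehicle at 6 h (adjusted p from limma = 0.00694) and Fkbp5 2.17 ± 0.27 at 12 h (0.0229). Late against early, the log2 differences were 1.04 ± 0.20 for Inmt, 0.53 ± 0.18 for Fkbp5, 0.46 ± 0.20 for Mt2 and -0.65 ± 0.15 for Gadd45g. None of the last 3 genes passed (adjusted p from limma = 0.9996 each).

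**Figure D2:**
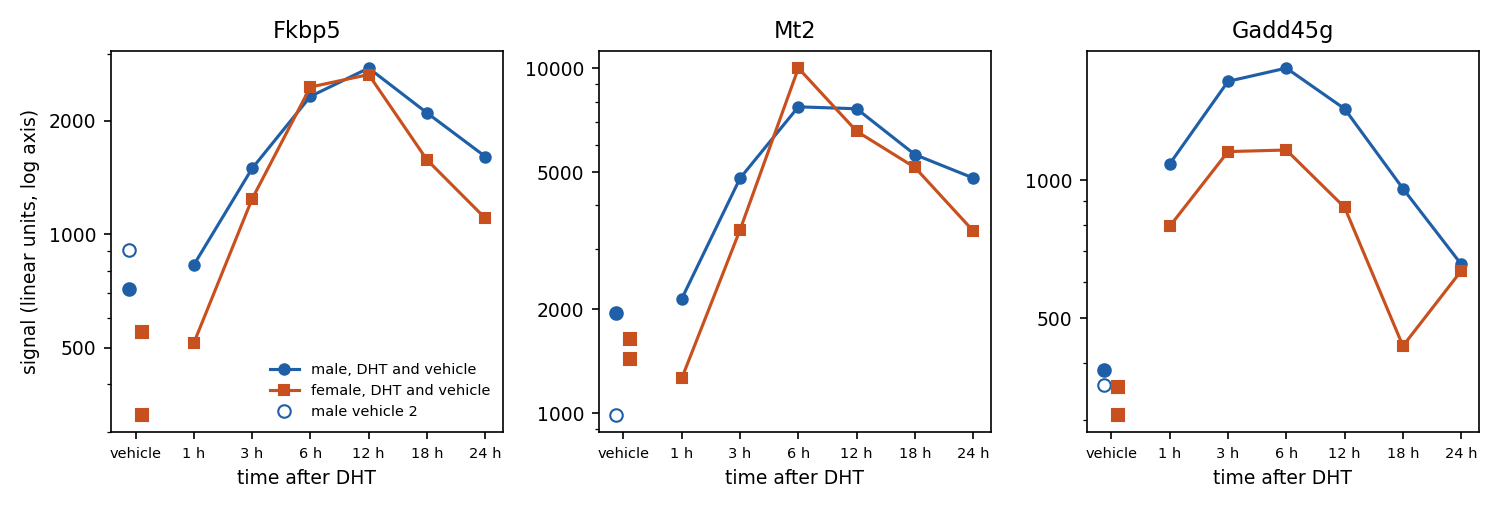
Signals (linear MAS5 units, log axes that differ between panels) of Fkbp5, Mt2 and Gadd45g on each array by time after DHT, with vehicle at the left and the muscle-rich array as an open circle. Fkbp5 was highest at 12 h and Mt2 and Gadd45g at 6 h in both sexes, and each was lower at 24 h than at its maximum.

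Inmt was lower in females than in males at every matched time. Male signals ran from 476 over a median of 1027 to 1716 (n = 8), and female signals from 129 over a median of 377 to 682 (n = 8). All 8 male arrays were above both female vehicle arrays, and 6 of 8 were above every female array. The exceptions were the male 1 h array and the muscle-rich array, which were below the late female arrays. The groups therefore overlapped, but only between the late female arrays and the lowest male arrays.

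Adjusted for time, female Inmt was 1.52 ± 0.17 lower on the log2(signal + 16) scale (female minus male -1.52), a 2.86-fold difference (adjusted p from limma = 0.000370). In this comparison 1.13% of all genes tested passed as lower in females. Inmt had the smallest p among them, and its log2 fall was exceeded by Ucp1, the uncoupling protein of brown fat, and by Pon1, an esterase, of which only Ucp1 passed. Without the muscle-rich array the Inmt difference was -1.53 ± 0.17 (adjusted p from limma = 9.22e-05), and it ranked the 16th by p among lower genes, of which 7.76% of those tested then passed. The fall was then exceeded by 5 genes, Ucp1, Pon1, Nnat, H3c14 and Ephx1.

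At matched times the male signal was 2.88 times the female signal at 1 h, 2.53 times at 3 h, 2.66 times at 6 h, 2.98 times at 12 h, 2.43 times at 18 h and 1.87 times at 24 h. Females were lower at 6 of 6 times, with a mean log2 difference of -1.30 ± 0.228 (SD, n = 6). An exact two-sided sign-flip permutation test over the 6 times gave p = 0.03125, the smallest value it can give. The ratio was lowest at 24 h, when the male signal had fallen from its maximum and the female signal had hardly changed. On vehicle the mean male signal was 5.05 times the mean female signal, 6.47 times for the male array that was not muscle-rich and 3.64 times for the muscle-rich array.

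The male to female ratio was thus larger on vehicle than after DHT, and the sex difference of the response was tested directly. In females the late arrays were 2.08 ± 0.39 above vehicle on the log2 scale, against 1.16 ± 0.39 in males. The sex difference of this late response was 0.93 ± 0.55 and did not pass (adjusted p from limma = 0.559). This fit took the times of a phase as replicates, so its SEs include differences between times. Over all 6 times the response was 0.86 ± 0.32 larger in females, which did not pass either (adjusted p from limma = 0.594). In limma 0% of all genes tested passed the late or the mean comparison (505 and 365 had an unadjusted p under 0.05). The male vehicle arrays decided its size. The difference was 1.26 ± 0.27 without the muscle-rich array (adjusted p from limma = 0.988) and 0.45 ± 0.27 without the other male vehicle array (0.232).

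Cell type markers and the sex difference moved together in part. The summed signal of 11 adipocyte markers was 85363 to 111573 on the 7 male arrays that were not muscle-rich and 69454 to 89845 on the 8 female arrays, with a ratio of medians of 1.35. Inmt had medians of 1163 and 377 on the same male and female arrays. Single adipocyte markers departed from the sum, with male and female medians of 4366 and 1804 for Lep and 26828 and 21883 for Adipoq. In limma 0 of 11 adipocyte markers passed as lower in females with 16 arrays, where 1.13% of all genes did. With 15 arrays 6 of 11 passed (Cidec, Lep, Lipe, Pck1, Retn and Slc2a4), where 7.76% of all genes did. By direction alone, 7 of 11 were lower in females with 16 arrays and 11 of 11 with 15. Skeletal muscle markers summed to 43299 to 76130 on the 7 male arrays and 22481 to 55413 on the female arrays, which overlapped, with a ratio of medians of 1.57. In limma 0 of 18 passed as lower in females with 16 arrays and 7 of 18 with 15. By direction alone, 17 of 18 were lower in females with 16 arrays and 15 of 18 with 15. Of all genes tested, 52.2% were higher in females with 16 arrays and 50.6% with 15. Fibroblast markers summed to 61325 to 73016 in males and 89002 to 133388 in females, macrophage markers to 25251 to 31800 and 34703 to 46793, and smooth muscle markers to 6218 to 7974 and 11180 to 16064, without overlap. The part of these differences in the Inmt result was not tested. Lung markers overlapped between the sexes, with sums of 422 to 608 in males and 334 to 921 in females.

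**Figure D3:**
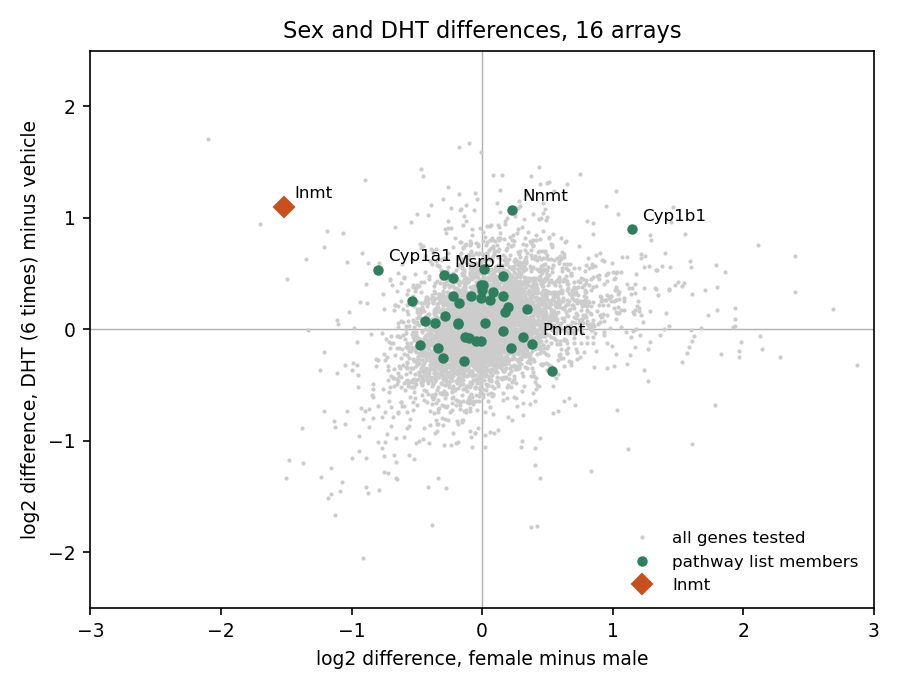
Log2 difference of females from males (x axis) against the mean log2 difference of the 6 DHT times from vehicle (y axis) for the genes tested on 16 arrays, with Inmt as a diamond and the other pathway genes in green; 5 genes lie outside the plotted range. Inmt sits at -1.52 and 1.10, to the left of the other pathway genes. Of these Cyp1a1 was lowest on the x axis (-0.80), and only it passed the sex comparison. On the y axis Nnmt was at 1.07 and Cyp1b1 at 0.90. Inmt was chosen for its rise over vehicle, so its height on that axis is no test.

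Genes whose pattern was most like that of Inmt were named by Pearson's r of log2(signal + 16) with Inmt over the 15 arrays without the muscle-rich array. These arrays share the sex difference and the scaling, so r is given as a description. Of 5685 genes, 4 had r over 0.9. These were Agt, the precursor of angiotensin (0.944), Rgcc, a regulator of the cell cycle (0.940), Hsd11b1, which regenerates active glucocorticoid (0.913), and Ahcyl1, a relative of the S-adenosylhomocysteine hydrolase (0.906). The next were Dctn3, a dynactin subunit (0.888), Msrb1, a selenoprotein that reduces oxidised methionine (0.874), Plin4, a lipid droplet coat protein (0.872), and Cyp2e1, an ethanol-oxidising cytochrome P450 (0.870). The next gene in order had 0.861.

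The highest likeness held within each sex for some of these genes. For Agt, r with Inmt was 0.980 over the 7 male arrays and 0.840 over the 8 female arrays, and for Hsd11b1 it was 0.932 and 0.834. Cyp2e1 had 0.414 in males and 0.941 in females. Only 2 of the 8 genes were among the top 8 over male arrays alone and 3 over female arrays alone, and 2 remained when the muscle-rich array was included.

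Agt signals in males were 1985 and 305 on vehicle, the latter on the muscle-rich array, and 1510, 2109, 2425, 3119, 2751 and 2390 at the 6 DHT times in order. In females they were 948 and 1101 on vehicle and 1074, 1361, 1535, 1844, 1281 and 1782 after DHT. Agt thus shared the low male 1 h value and the male maximum at 12 h with Inmt. Its range was narrower, and the muscle-rich array was far lower for Agt than for Inmt relative to the other male vehicle array.

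Hsd11b1 signals in males were 1200 and 241 on vehicle and 932, 981, 1353, 1660, 1661 and 1632 after DHT. In females they were 405 and 376 on vehicle and 395, 562, 465, 540, 566 and 809 after DHT. Apart from the muscle-rich array, no male array overlapped the female arrays. Without that array Hsd11b1 differed between the sexes by -1.33 ± 0.11 on the log2 scale and Inmt by -1.53 ± 0.17, while the mean DHT differences were 0.35 ± 0.14 and 1.07 ± 0.21. Among the comparison genes, r with Inmt was 0.756 for Fkbp5, 0.703 for Mt2 and 0.475 for Gadd45g.

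The 4 genes with the most opposite pattern were Igsf10, an immunoglobulin superfamily gene (-0.902), Cytip, which binds cytohesins in blood cells (-0.889), Bcl6b, a transcriptional repressor (-0.877), and Pald1, an endothelial phosphatase-like gene (-0.873). Each was higher in females, by 0.61 ± 0.08, 0.51 ± 0.10, 0.66 ± 0.12 and 0.40 ± 0.09 on the log2 scale with 15 arrays. These sex differences follow from the choice by likeness to Inmt and were not used as a test.

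**Figure D4:**
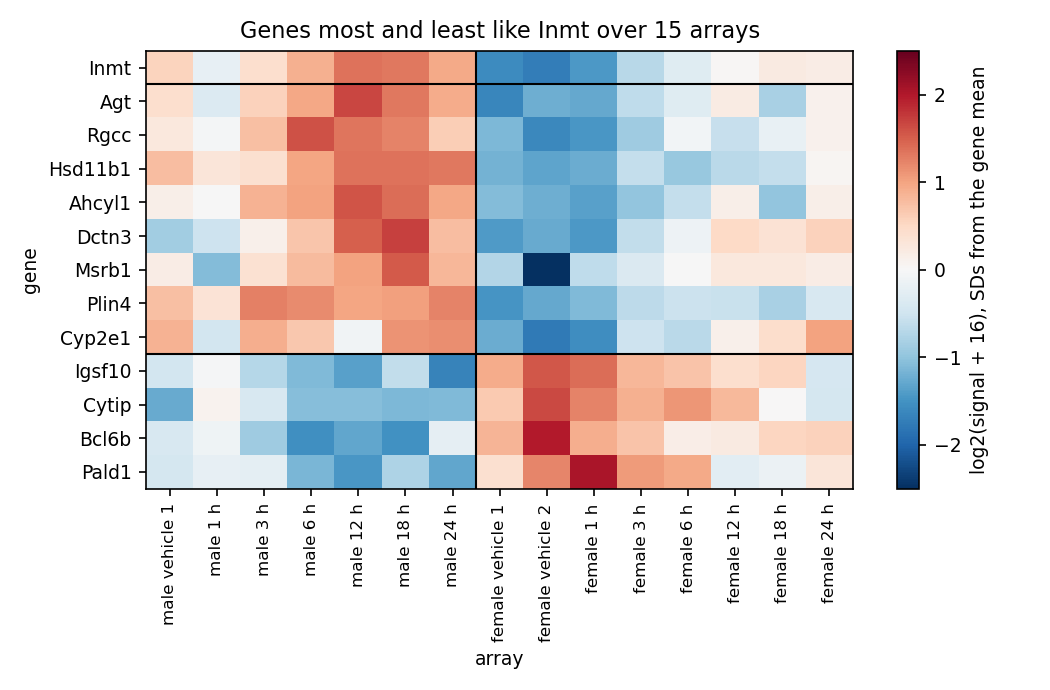
Log2(signal + 16) of Inmt, the 8 genes with the highest and the 4 with the lowest Pearson r with it, as SDs from each gene's mean over 15 arrays, with male arrays left of the vertical line and female arrays right of it. Values of Inmt and the 8 genes (r 0.870 to 0.944) were mostly above their means in late male arrays and below them in female vehicle and 1 h arrays, and the 4 genes at the bottom (r -0.902 to -0.873) showed the reverse.

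The other genes of the pathway came from 5 lists and numbered 40 besides Inmt after the filter on low signals. Under DHT 0 of 40 passed in limma, with 0.0703% of all genes passing, and 2 of 40 had an unadjusted p under 0.05 (290 of all genes). Their median log2 difference was 0.17, against 0.04 for all genes, and without the muscle-rich array it was 0.09, against 0.01. Late against early 0 of 40 passed, with a median of 0.01 against -0.01 for all genes, and 0 of 40 had an unadjusted p under 0.05. In females against males 1 of 40 passed with 16 arrays, where 5.75% of all genes passed, and 8 of 40 with 15 arrays, where 16.6% did.

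The closest relatives of Inmt were set beside it. Nnmt, the nicotinamide N-methyltransferase known from fat and liver, had signals of 2518 and 117 on male vehicle arrays, the latter on the muscle-rich array, and of 2581 to 3785 after DHT. In females it had 2546 and 2463 on vehicle and 1788 to 2383 after DHT. Its mean DHT difference of 1.07 ± 0.64 did not pass (adjusted p from limma = 0.630) and was -0.04 ± 0.11 without the muscle-rich array, where Inmt kept 1.07 ± 0.21. Nnmt did not pass between the sexes with 16 arrays (0.23 ± 0.56, adjusted p from limma = 0.867) and was lower in females with 15 (-0.32 ± 0.09, 0.0317). Over 15 arrays its r with Inmt was 0.267, but within sex it was -0.427 over male arrays and -0.563 over female arrays.

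Pnmt, which makes adrenaline from noradrenaline, had signals of 299 to 581 on 15 arrays and 45.1 on the male 1 h array. A second Pnmt probe set ranged from 41.6 to 512. The mean DHT difference of Pnmt was -0.13 ± 0.37 (adjusted p from limma = 0.890) and its sex difference 0.38 ± 0.32 (0.564). Its r with Inmt was 0.084 over 15 arrays, 0.738 over male arrays and 0.290 over female arrays. Neither relative had a rise under DHT that passed, with or without the muscle-rich array. Inmt was not among the genes that passed either, so this does not set it apart from its relatives.

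Of 15 genes listed as other small-molecule methyltransferases, 10 were on the array and 8 passed the filter on low signals. Their median log2 difference under DHT was 0.15 and 5 of 8 were above vehicle, where 55.4% of all genes were. The largest were Pemt, which makes phosphatidylcholine (0.48 ± 0.30), Tpmt, which methylates thiopurines (0.46 ± 0.28), and Icmt, which methylates prenylated proteins (0.30 ± 0.20), and none passed (adjusted p from limma = 0.630 each). Size and order depended on the muscle-rich array, without which they were 0.32 ± 0.32, 0.12 ± 0.23 and 0.40 ± 0.21. Between the sexes none passed with 16 arrays. Coq7, an enzyme of ubiquinone synthesis that was on the list but is not itself a methyltransferase, was lower in females with 15 (-0.40 ± 0.13, adjusted p from limma = 0.0468).

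Of 23 genes of the methionine and S-adenosylmethionine cycle, 8 of the 12 on the array passed the filter. Under DHT their median was 0.13 and 5 of 8 were above vehicle, where 55.4% of all genes were. The largest differences were those of Srm, the spermidine synthase (0.39 ± 0.20), Ahcyl1 (0.30 ± 0.16) and Bhmt, which remethylates homocysteine (0.26 ± 0.38), and none passed (adjusted p from limma = 0.630, 0.630 and 0.782). Without the muscle-rich array they were 0.16 ± 0.16, 0.08 ± 0.08 and 0.44 ± 0.41, with Bhmt the largest. Ahcyl1, the list member most like Inmt, varied little, from 2675 to 3458 on the 15 arrays against 129 to 1716 for Inmt. Adk, which removes the adenosine released by S-adenosylhomocysteine hydrolysis, was lower in females with 15 arrays (-0.39 ± 0.11, adjusted p from limma = 0.0362).

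Of 25 genes of tryptophan, tryptamine and serotonin metabolism, 10 of the 14 on the array passed the filter. Under DHT 9 of 10 were above vehicle, where 55.4% of all genes were, and none passed the threshold. Without the muscle-rich array 8 of 10 were, where 51.2% of all genes were. The median was 0.33, against 0.04 for all genes, and 0.20 against 0.01 without the muscle-rich array. The largest were Cyp1b1, a cytochrome P450 (0.90 ± 0.42), Ido1, which opens the tryptophan ring (0.54 ± 0.55), and Cyp1a1, a cytochrome P450 induced by aryl hydrocarbon receptor ligands (0.53 ± 0.18), with adjusted p from limma of 0.630, 0.696 and 0.630. Cyp1b1 read 27.0 on the muscle-rich array, and without it the differences were 0.19 ± 0.16, 0.71 ± 0.60 and 0.35 ± 0.17.

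Cyp1a1 was the 1 pathway gene besides Inmt that passed between the sexes on 16 arrays. Its male signals were 150 and 93.7 on vehicle and 178 to 268 after DHT, and its female signals 84.2 and 88.4 on vehicle and 85.5 to 137 after DHT. Every male DHT array was above every female array. The difference was -0.80 ± 0.16 on the log2 scale (adjusted p from limma = 0.0111). Its r with Inmt was 0.849 over 15 arrays, 0.455 over male arrays and 0.771 over female arrays. These signals were low, so background makes up much of each. The female median of 94.5 was below the filter on low signals (116) and the male median of 209 above it. Cyp1a1 was therefore tested because of its male signals, which limits the sex test. A second Cyp1a1 probe set ranged from 20.5 to 144. With 15 arrays Aldh2, which oxidises aldehydes (-0.43 ± 0.09, adjusted p from limma = 0.00639), was also lower in females, and Cyp1b1 (0.80 ± 0.13, 0.00138) and the serotonin transporter Slc6a4 (0.61 ± 0.15, 0.0157) were higher.

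Selenium handling was represented by 13 tested genes of 21. Under DHT the median was 0.05, close to the 0.04 of all genes. Msrb1 (0.48 ± 0.16), the plasma glutathione peroxidase Gpx3 (0.33 ± 0.19) and the selenophosphate synthetase Sephs2 (-0.29 ± 0.20) had the largest differences, and none passed (adjusted p from limma = 0.630 each). Without the muscle-rich array Msrb1 had 0.44 ± 0.15, while Gpx3 had 0.07 ± 0.08 and Sephs2 -0.13 ± 0.20, both smaller than Selenbp1 (-0.26 ± 0.13). Msrb1 signals in males were 5541 and 4102 on vehicle and ran from 3981 at 1 h to 7855 at 18 h. In females they were 4363 and 2678 on vehicle and ran from 4479 at 1 h to 5665 at 12 h. As for Inmt, the male 1 h array was the lowest male array. Selenbp1, a selenium-binding methanethiol oxidase, was lower in females with 15 arrays (-0.51 ± 0.10, adjusted p from limma = 0.00494).

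The nearest genes with probe sets on either side of Inmt in the mouse annotation were also examined. Crhr2, a corticotropin-releasing hormone receptor with 1 gene between it and Inmt, had signals of at most 70.9 on its main probe set and did not pass the filter. A second Crhr2 probe set ranged from 8.28 to 229, with a median of 27.5. Aqp1, a water channel with 2 genes between, had signals of 2370 to 3563 in males and 1373 to 2507 in females. Its DHT differences lay between -0.36 and 0.25 on the log2 scale at the 6 times, where Inmt reached 1.74, and none passed. Aqp1 was lower in females by 0.65 ± 0.10 (female minus male -0.65, adjusted p from limma = 0.00345), where Inmt had -1.52. Across the 15 arrays r between Aqp1 and Inmt was 0.377, and within sex it was -0.884 over male arrays and -0.477 over female arrays.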

How the data were processed

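Each probe set has a linear signal intensity per array, which the authors made with MAS5 per the submitters' processing notes (MAS5 version not given in the sources used here). Detection calls were not used. Names came from the platform annotation (10833 probe sets with 1 symbol, 396 with several, left unnamed), of which 10817 matched RefSeq genes of GRCm38.p6 by Entrez identifier. Each of 8251 genes was represented by its brightest probe set (by mean log2 signal), and 5686 above the 40th percentile of mean signal (116.03) were tested. limma 3.58.1 (R 4.3.3) was fitted to log2(signal + 16), which understates folds at low signal, with sex and time as factors and a trend in eBayes. A sex by DHT term was added for the mean response. The late response came from a separate model of sex by phase (vehicle, early, late) without time, in which the times of a phase served as replicates. Tests were two-sided, adjusted by Benjamini-Hochberg over 5686 genes at 0.05, and checked on simulated data. Promoter sequences are RefSeq's.

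Named genes were Inmt, Nnmt, Pnmt, list members past the threshold or with the 3 largest DHT differences, the 8 most and 4 least like genes, 3 comparison genes and the flanking genes with probe sets. The gene, lists and rules were chosen with earlier results of these data known. Alternatives varied the pseudocount, scaling, filter, trend, covariate and arrays.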

Additional observations from a re-analysis of the deposited data

Results flagged for a closer look

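Among 12 groups of 4 to 10 arrays examined for an array far from the others, 2 held such an array, and chance gives about 1 in 20 groups. Neither concerned Inmt itself. Nnmt had a signal of 117 on the muscle-rich male vehicle array, against 2463 to 2547 on the other 3 vehicle arrays. Pnmt had a signal of 45.1 on the male 1 h array, against 343 to 470 on the other 5 male DHT arrays.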

How the results depend on the processing

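The female minus male difference of Inmt kept its direction and passed under every alternative run, from -1.61 to -1.30 on the log2 scale (adjusted p from limma 5.51e-05 to 0.00211). The lowest size, -1.30, came from DHT arrays only, an alternative chosen after seeing the data. At matched times it ranged from -1.38 to -1.25 when each time was left out, with an exact p of 0.0625, the smallest that 5 times allow. The mean DHT difference ranged from 0.95 to 1.36 and late against early from 0.92 to 1.16. At 1 h the value turned to 0.15 without male vehicle replicate 1 (range over arrays left out -0.26 to 0.15), and at 24 h it was 1.84 without the male and 1.12 without the female 24 h array. The sex difference of the DHT response ranged from 0.45 to 1.27 and that of the late response from 0.52 to 1.33, and neither passed. The count of pathway genes that differed by sex was 1 on 16 arrays, 3 without male vehicle replicate 1, and 8 without the muscle-rich array (also with the covariate) or with DHT arrays only; leaving out single arrays gave 1 to 8. Of the 8 genes most like Inmt, 2 were kept with 16 arrays, 5 with Spearman's rho and 5 with each sex's mean subtracted. Rescaling moved the median of all genes by at most 0.09. No paired analysis was possible because replicate numbers tie no arrays to an animal, and the only pairing used was that of female with male arrays by DHT time.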
